A study of Mus musculus with 6 samples.

Results

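The miRNAs described here are miR-151 and its relatives miR-28a and miR-708, which belong to the mir-28 family. Members were taken by name, as each entry of the deposited table for an arm of these hairpins. They were 5 of the 718 listed entries, namely mmu-miR-151-5p, mmu-miR-151-3p, mmu-miR-28a-5p, mmu-miR-28a-3p and mmu-miR-708-3p, which are written without the prefix from here on. No other arm of the family was among the entries, and miR-708-5p was not analysed here. The study sequenced small RNA of small extracellular vesicles (sEVs) from cultured islets of wild-type C57/B6J mice, with 3 libraries from mice on a normal chow diet (NCD, giving nid-sEVs) and 3 from mice on a high-fat diet (HFD, giving aid-sEVs). The study's general description has mice entering the diets at 8 weeks of age and 9 weeks of HFD. Islets stayed for 48 hours in serum-free medium before the vesicles were collected, and 5 ng of RNA went into each library. The number of mice behind a library is not given, so p-values measure only the spread between these libraries, which may be technical.

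A miRNA is cut from a hairpin precursor whose stem has a 5p and a 3p arm. Either arm can be loaded into an Argonaute protein, where bases 2 to 8, the seed, pair with target mRNAs. Because the arms have different seeds, they repress different targets, and the arm that is not loaded is usually degraded. The hairpins of miR-151, miR-28a and miR-708 lie in introns of protein-coding genes and are thought to be made from the transcripts of these hosts. The study followed miR-151 as vesicle cargo from islets to mesenchymal stem cells. As candidates it took the most abundant of the miRNAs higher in aid-sEVs in these libraries. It then chose miR-151 by its abundance in qRT-PCR and by effects on mesenchymal stem cells. The change and the level of miR-151-5p given here are therefore not independent evidence for that choice.

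In GENCODE M21 on GRCm38, the build that the submitters' processing notes name, Mir151 lies at chr15:73254815-73254882 on the minus strand. It is inside Ptk2, which encodes focal adhesion kinase, and overlaps no exon of the 5 Ptk2 transcripts that span it. An antisense gene on the plus strand, 1700085D07Rik, also spans it without an exon there. Mir28a lies at chr16:24827855-24827940 on the plus strand, in an intron of Lpp, which encodes a protein of focal adhesions, and 3 Lpp transcripts span it. Mir708 lies at chr7:96249424-96249532 on the plus strand, in an intron of Tenm4, a teneurin of the cell surface, and 7 Tenm4 transcripts span it. All 3 hairpins share the strand of their protein-coding host and overlap none of its exons.

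The sequences below show how close the arms of miR-28a, miR-28b and miR-708 are to each other. They come from RefSeq on GRCm38.p6, with the seed in capitals. The 5p arms of miR-28a and miR-708 begin with the same 8 bases, and miR-28b, also of this family, is shown because its start is shifted.
miR-28a-5p: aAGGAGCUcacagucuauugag
miR-708-5p: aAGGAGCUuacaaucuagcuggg
miR-28b: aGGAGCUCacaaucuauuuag
miR-28a-3p: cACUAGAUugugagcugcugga
miR-708-3p: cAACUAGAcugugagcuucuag

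Without gaps, miR-28a-5p and miR-708-5p had 16 of 22 bases in common. Counted from 1 at the 5′ end, with the base of miR-28a-5p first, the substitutions were C9U, G13A, U18G, U19C, G20U and A21G, all outside the seed. The seed of miR-28b is GGAGCUC, since its mature form starts 1 base later, and its longest run shared with miR-28a-5p was 11 bases. The 3p arms of miR-28a and miR-708 have different seeds, but both seeds hold ACUAGA, which lies 1 base later in miR-708-3p. These arms also share the run UGUGAGCU, from base 9 in miR-28a-3p and from base 10 in miR-708-3p. In miR-28a this run is the reverse complement of AGCUCACA, which starts at base 5 of the 5p arm, so the arms can pair over 8 bases of the stem. Of the listed miRNAs, 424 had a mature sequence in the RefSeq table. None of them had the seed of a listed miR-28a or miR-708 arm other than that arm itself. No sequence of miR-151 was held there, so its arms are not shown above and their seeds were not compared.

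Levels are given as RPM, the reads of an entry scaled to the total of its library. A read covers a whole mature miRNA, so RPM needs no division by length. All RPM values of a library were multiples of its smallest value, taken as 1 read. The library totals behind RPM were then 50534 to 129152 reads for nid-sEVs and 122266 to 519315 for aid-sEVs. Listed entries held from 99.753% (nid-sEV replicate 2) to 99.955% (aid-sEV replicate 2) of these totals. The totals are thus close to the reads given to entries, and the number of reads sequenced is not known here. A level of 3 reads, taken as the floor of detection, was 23.2 to 59.4 RPM in nid-sEVs and 5.78 to 24.5 RPM in aid-sEVs. Floors and intervals cover counting error only. Unnamed entries took 33.4% of the reads in nid-sEV replicate 1 and at most 9.45% elsewhere. The β cell miRNA miR-375-3p was abundant in every library, from 136424 to 163590 RPM in aid-sEVs but from 56584 to 346480 RPM in nid-sEVs. Summed with miR-7a-5p and miR-7b-5p, the β cell markers were at 73913 to 357997 RPM in nid-sEVs and 161566 to 184327 RPM in aid-sEVs. Of these markers, miR-7b-5p was higher in aid-sEVs (log2 fold change 1.84, adjusted p = 0.010 by limma). miR-375-3p (0.079) and miR-7a-5p (-0.14) did not pass that test. Of the markers of other cells, the summed blood cell and liver miRNAs were at 633 to 3913 RPM in nid-sEVs and at 73.6 to 304 RPM in aid-sEVs, with 3 of 6 markers at 0 reads in some library. Among them miR-122-5p was lower in aid-sEVs (log2 fold change -5.14, adjusted p = 0.016 by limma). No other marker outside the β cell list passed that test. The pancreatic exocrine markers were at 2533 to 8997 and 698 to 3370 RPM, the mesenchymal markers at 5383 to 24080 and 4480 to 11623 RPM, and the endothelial markers at 989 to 3717 and 679 to 1325 RPM. These ranges of nid-sEVs and aid-sEVs overlapped. The mesenchymal sum holds miR-199a-3p but not miR-199b-3p, which has the same mature sequence. miR-199b-3p was at 990 ± 608 RPM in nid-sEVs and 57.2 ± 69.7 RPM in aid-sEVs (SD, n = 3). The part of the marker levels in the results of the members was not tested.

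miR-151-5p was the most abundant member in every library and was higher in aid-sEVs. Its levels were 3314, 3137 and 1722 RPM in nid-sEV replicates 1, 2 and 3 and 9380, 9675 and 6183 RPM in aid-sEV replicates 1, 2 and 3. The lowest aid-sEV library exceeded the highest of nid-sEVs, and in both groups replicate 3 was the lowest. The mean rose from 2724 ± 873 to 8413 ± 1936 RPM (SD, n = 3), a ratio of 3.09. In limma's fit over all entries the difference in log2(RPM + 1) was 1.66 with an SE of 0.40 and an adjusted p of 0.037. This call held in 8 of 16 alternative settings, among them 2 of the 6 fits that left out 1 library, without nid-sEV replicate 1 (adjusted p = 0.034) or without aid-sEV replicate 3 (0.046). It was lost in the other 4 (limma adjusted p = 0.056 to 0.13), and also with the replicate number as a block, where the adjusted p was 0.11.

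The position of miR-151-5p within a library does not depend on the scaling of its total. Ordered by reads among all listed entries, it ranked 46, 50 and 56 in the nid-sEV replicates and 18, 17 and 28 in the aid-sEV replicates. It thus stood higher in each aid-sEV library than in any nid-sEV library. By mean RPM in aid-sEVs it was number 19 of the 479 miRNAs with a miRBase name. Its neighbours there were miR-29a-3p at 8538 ± 2991 RPM and miR-125a-5p at 8095 ± 726 RPM, and the libraries of both overlapped those of miR-151-5p, so this order is not resolved. In nid-sEVs it was number 44, while miR-29a-3p was number 21 and miR-125a-5p number 25.

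Set against miR-375-3p, the groups overlapped. For each 1000 reads of miR-375-3p there were 58.6, 20.9 and 4.97 reads of miR-151-5p in nid-sEV replicates 1, 2 and 3, and 57.3, 62.2 and 45.3 in aid-sEV replicates 1, 2 and 3. The nid-sEV libraries were spread widely on this measure, as were their levels of miR-375-3p, which is its denominator. nid-sEV replicate 1 lay inside the range of aid-sEVs. The means were 28.1 ± 27.5 and 54.9 ± 8.67 (SD, n = 3), and the two-sided exact permutation test gave p = 0.30, where 3 libraries against 3 cannot go below 0.10. Per 1000 reads of the summed β cell markers the groups also overlapped, at 4.81 to 44.8 in nid-sEVs and 38.3 to 53.9 in aid-sEVs. Against the mesenchymal markers they did not overlap, at 138 to 320 in nid-sEVs and 807 to 2160 in aid-sEVs. The pancreatic exocrine, endothelial, and blood cell and liver sums gave no overlap either. The part of the marker levels in these ratios was not tested.

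The 3p arm of miR-151 was less abundant than the 5p arm in every library. It had 697, 518 and 475 RPM in the nid-sEV replicates and 938, 1212 and 1194 RPM in the aid-sEV replicates. On this scale the groups did not overlap, but aid-sEV replicate 3, the lowest for the 5p arm, was close to the highest for the 3p arm. The means were 563 ± 118 and 1115 ± 153 RPM (SD, n = 3), and the log2 fold change was 0.99 (95% interval 0.026 to 1.96) with an adjusted p of 0.17 by limma, so the 3p arm did not pass the test. Scaled to the reads of named miRNAs only, the groups overlapped, since nid-sEV replicate 1, where 33.4% of the reads were unnamed, then had 1048 RPM, more than the 1017 RPM of aid-sEV replicate 1. Its rank went from 88, 121 and 99 in the nid-sEV replicates to 78, 72 and 68 in the aid-sEV replicates.

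miR-28a was present at a small fraction of the level of miR-151, and its 5p arm has the seed it shares with miR-708-5p. miR-28a-5p had 12, 0 and 0 reads in the nid-sEV replicates and 96, 76 and 21 reads in the aid-sEV replicates. This is 92.9 RPM in nid-sEV replicate 1 and 185, 215.8 and 172 RPM in the aid-sEV replicates. The 0 reads of nid-sEV replicates 2 and 3 have 95% Wilson intervals up to 58.5 and 76.0 RPM, which is under the level of every aid-sEV library. For nid-sEV replicate 1 the interval was 53.2 to 162.4 RPM. It overlapped those of aid-sEV replicates 1 (151.4 to 225.7 RPM) and 3 (112.3 to 262.6 RPM), but not that of replicate 2 (172.4 to 270.0 RPM). The log2 fold change of 5.39 (SE 1.87) had an adjusted p of 0.11 by limma and did not pass the test, and its size depends on the value added to each level. It was 7.60 with a pseudocount of 0.1 and 3.20 with one of 10, and on recovered reads it was 2.08 by edgeR and 2.43 by DESeq2, none of which passed. Without nid-sEV replicate 1 it was 7.58 with a limma adjusted p of 0.0037, but both nid-sEV libraries then left have 0 reads, so that the added 1 sets the value and its spread. With any other library left out the adjusted p was 0.21 to 0.31 by limma, and with thinned reads it was 0.22. When reads were thinned to the size of nid-sEV replicate 3, 3, 0 and 0 reads remained in nid-sEVs and 8, 7 and 10 in aid-sEVs, again without overlap.

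The 3p arm of miR-28a had 9, 2 and 2 reads in the nid-sEV replicates and 38, 35 and 18 in the aid-sEV replicates. This corresponds to 69.7, 30.5 and 39.6 RPM in nid-sEVs and 73.2, 99.4 and 147 RPM in aid-sEVs. The groups did not overlap on this scale, yet the closest libraries, at 69.7 and 73.2 RPM, are not separable at this depth, with 95% Wilson intervals of 36.7 to 132 and 53.3 to 100.4 RPM. The log2 fold change was 1.20 (95% interval -0.43 to 2.83) with an adjusted p of 0.27 by limma. Scaled to the reads of named miRNAs only, the groups overlapped, since nid-sEV replicate 1 then had 104.8 RPM, more than the 79.4 RPM of aid-sEV replicate 1. Of the aid-sEV libraries, replicate 3 was the lowest for miR-28a-5p and the highest for miR-28a-3p.

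miR-708-3p, the arm opposite to the one with the shared seed, was the least abundant member. It had 8, 0 and 0 reads in the nid-sEV replicates, and 13, 5 and 1 reads in the aid-sEV replicates. These are 61.9 RPM in nid-sEV replicate 1 and 25.0, 14.2 and 8.18 RPM in aid-sEVs, so the aid-sEV libraries lay between the nid-sEV libraries. Mean RPM was lower in aid-sEVs, at 15.8 ± 8.54 against 20.6 ± 35.8 (SD, n = 3), while the log2 fold change on the log2(RPM + 1) scale was 1.95 (95% interval -2.43 to 6.33, adjusted p = 0.51 by limma). No direction can be given for it, since DESeq2 on the recovered reads gave -0.53. All aid-sEV levels lay under the floors of nid-sEV replicates 2 and 3.

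**Figure D1:**
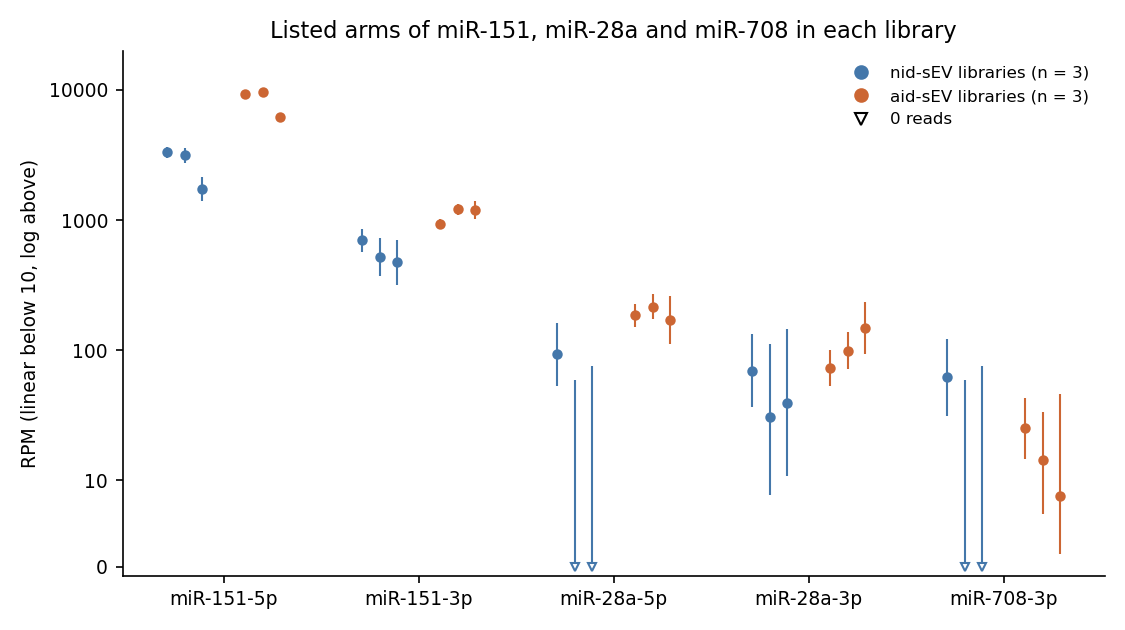
RPM of the 5 listed arms in each library (linear below 10 RPM, logarithmic above), with replicates 1 to 3 from left to right in each group and bars for 95% Wilson intervals of the counts. The aid-sEV libraries of miR-151-5p, between 6183 and 9675 RPM, lie above the nid-sEV libraries, at most 3314 RPM, and miR-708-3p overlaps.

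In order of mean RPM in aid-sEVs the members ran miR-151-5p, miR-151-3p, miR-28a-5p, miR-28a-3p and miR-708-3p, and the libraries of neighbours in this order did not overlap. In nid-sEVs the libraries of miR-28a-5p, miR-28a-3p and miR-708-3p overlapped, so their order is open there. Together the arms had 4235, 3685 and 2236 RPM in the nid-sEV replicates and 10601, 11217 and 7705 RPM in the aid-sEV replicates. Most of these reads were miR-151-5p, with 77.0% to 85.1% in nid-sEVs and 80.3% to 88.5% in aid-sEVs. Reads of different miRNAs are captured with different efficiency in small RNA libraries, which was not tested here.

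Of the 5 members, only miR-151-5p was called. Calls needed a limma adjusted p below 0.05 and a change of more than 1 on the log2 scale, and 17.4% of all entries met this, 15.6% being higher and 1.81% lower in aid-sEVs. On recovered reads miR-151-5p was also the only member called, by edgeR, which called 19.6% of the entries it tested higher and 8.57% lower, and by DESeq2, with 14.9% and 11.5%. In 4 of the 5, every aid-sEV library exceeded every nid-sEV library, against 24.2% of all entries. Among the 3 members with reads in every library the count was 3, against 20.5% of the 219 entries detected in all 6 libraries. The 4 were both arms of miR-151 and both arms of miR-28a, and arms of the same hairpin are not independent. These counts depend on the scaling, since 33.4% of the reads of nid-sEV replicate 1 were unnamed. With levels scaled to the reads of named miRNAs, the groups of miR-151-3p and miR-28a-3p overlapped and the counts were 2 of 5, against 27.1% of the 479 named miRNAs, and 1 of 3, against 20.2% of the 178 of them detected in all libraries. miR-151-5p and miR-28a-5p remained without overlap. The 5 members had a median log2 fold change of 1.66, whereas it was 1.11 over all entries. The 3 members detected in all 6 libraries had a median of 1.20, against -0.21 over the 219. Of these 219 entries, 87.2% had a lower log2 fold change than miR-151-5p, 79.5% a lower one than miR-28a-3p and 75.3% a lower one than miR-151-3p. Over all 718 entries the shares were 58.5%, 51.7% and 48.5%, because many entries with 0 reads in nid-sEVs have large values on this scale.

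**Figure D2:**
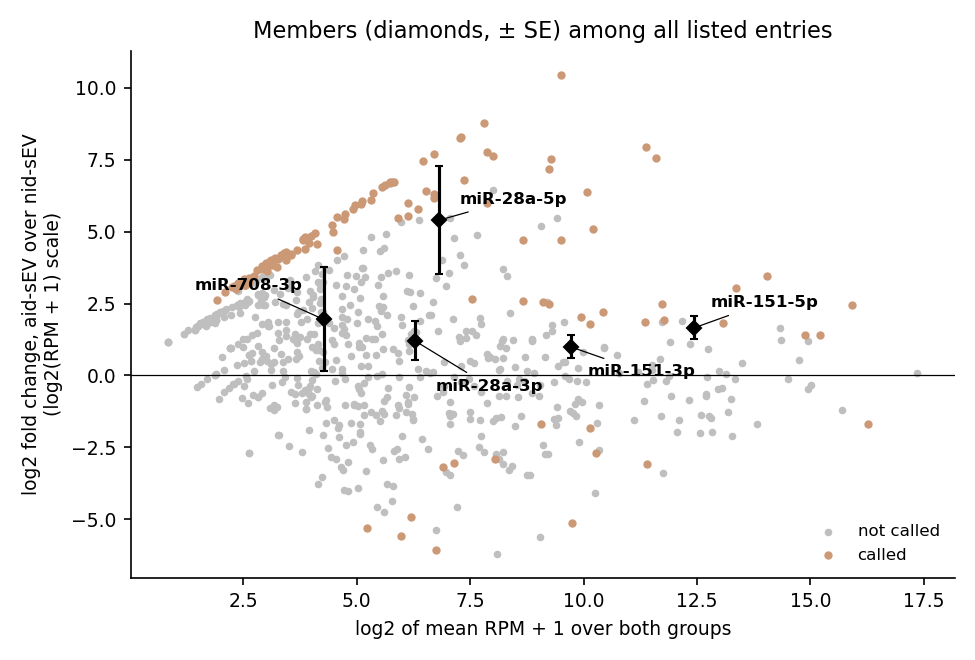
Log2 fold change (aid-sEV over nid-sEV) of each of the 718 entries against the log2 of its mean RPM + 1, with the members as diamonds with SE bars and called entries in brown. miR-151-5p, at 1.66, is the only called member, and miR-28a-5p, at 5.39, has the widest bar.

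Whether miR-151-5p changed by another amount than other members was tested on the log2 ratio of reads (with 0.5 added) within each library, which the library total does not affect. The ratio of miR-151-5p to miR-151-3p was higher in aid-sEVs by 0.67 on the log2 scale and that to miR-28a-3p by 0.64, and in both cases the groups overlapped. The two-sided exact permutation p-values were 0.20 and 0.30, where 0.10 is the smallest that 3 against 3 allow, and the adjusted p over the 4 planned ratios was 0.40 for each. No comparison is given with miR-28a-5p and miR-708-3p, which had 0 reads in nid-sEV replicates 2 and 3, so that the added 0.5 and the depth of the library set the ratio there. A difference in change between miR-151-5p and miR-151-3p or miR-28a-3p was not shown, and equal change was not shown either.

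The arms of miR-151 were compared further, since the balance of arms is set after transcription. The 3p arm took 17.4%, 14.2% and 21.6% of the miR-151 reads in nid-sEV replicates 1, 2 and 3. In aid-sEV replicates 1, 2 and 3 it took 9.09%, 11.1% and 16.2%. The share was lower on average in aid-sEVs, at 12.1 ± 3.65% against 17.7 ± 3.74% (SD, n = 3), but aid-sEV replicate 3 lay above nid-sEV replicate 2. The 95% Wilson intervals of aid-sEV replicates 1 and 2, 8.35% to 9.89% and 10.2% to 12.2%, lay under that of aid-sEV replicate 3, 13.9% to 18.7%, so libraries of the same group differed beyond counting error.

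For miR-28a the 3p share was 42.9% in nid-sEV replicate 1 and 28.4%, 31.5% and 46.2% in aid-sEV replicates 1, 2 and 3. In nid-sEV replicates 2 and 3 the only 2 reads of the hairpin were of the 3p arm, with a Wilson interval of 34.2% to 100%, and no change of its arms can be read at this depth. The 5p arm had more reads than the 3p arm in all libraries for miR-151, and in the 4 libraries with both arms for miR-28a. For miR-28a, however, the Wilson intervals of the 3p share in nid-sEV replicate 1, 24.5% to 63.5%, and in aid-sEV replicate 3, 31.6% to 61.4%, include equal arms. In aid-sEVs, replicate 3 had the highest 3p share for both hairpins.

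**Figure D3:**
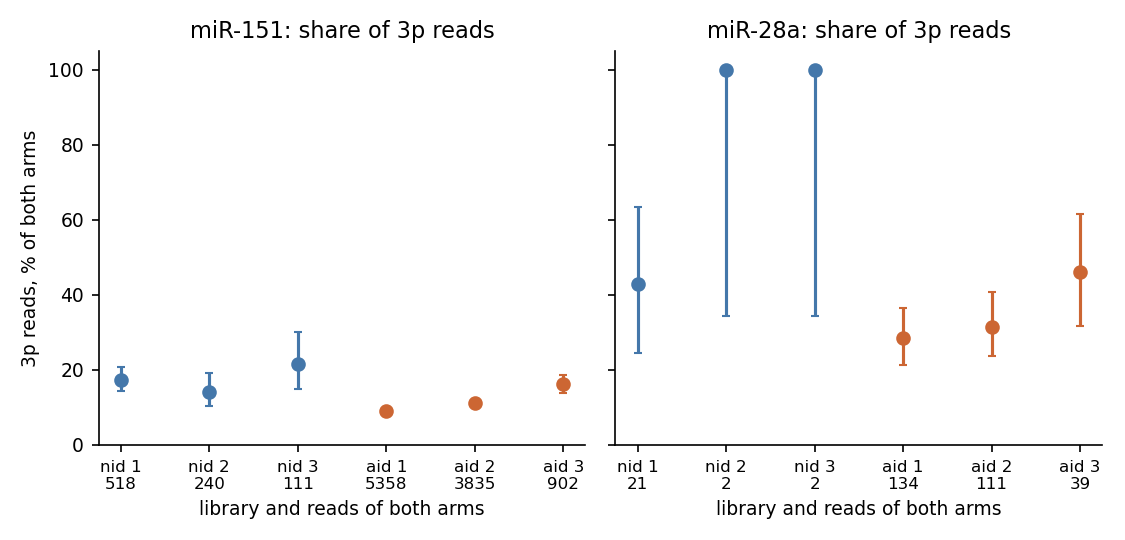
Share of 3p reads among the reads of both arms (in %) for miR-151 and miR-28a in each library, with 95% Wilson intervals and the number of reads under each library. The miR-151 share runs from 9.09% to 16.2% in aid-sEVs and from 14.2% to 21.6% in nid-sEVs, with overlap.

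To set this in the context of other hairpins, the log2 ratio of 5p to 3p reads was fitted with limma over the 16 hairpins, out of 128 with both arms listed, that had both arms in every library. For miR-151 it went from 2.22 ± 0.37 in nid-sEVs to 2.89 ± 0.48 in aid-sEVs (SD, n = 3), a change of 0.67 (95% interval -0.40 to 1.75, adjusted p = 0.34 by limma). This was the fourth-largest increase of the 16, whose median change was 0.10, and 12.5% of the hairpins passed the test. The interval leaves room for a shift of 1.75 toward the 5p arm or of 0.40 toward the 3p arm. The largest increases, 1.23 for miR-99b and 1.05 for miR-434, did not pass the test, with adjusted p-values of 0.17 and 0.34 by limma. As listed, the hairpins that passed moved toward the 3p arm, miR-423 by -4.00 and miR-199a by -3.23, with limma adjusted p-values of 0.00022 and 0.0038. The value of miR-199a rests on how reads were divided between miR-199a-3p and miR-199b-3p, which have the same mature sequence. miR-199a-3p was at 153 ± 209 RPM in nid-sEVs and 270 ± 123.3 RPM in aid-sEVs, and miR-199b-3p at 990 ± 608 and 57.2 ± 69.7 RPM (SD, n = 3). With the reads of both 3p entries summed, the change of miR-199a was 0.011 with a limma adjusted p of 0.98, and no arm change is read for it.

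**Figure D4:**
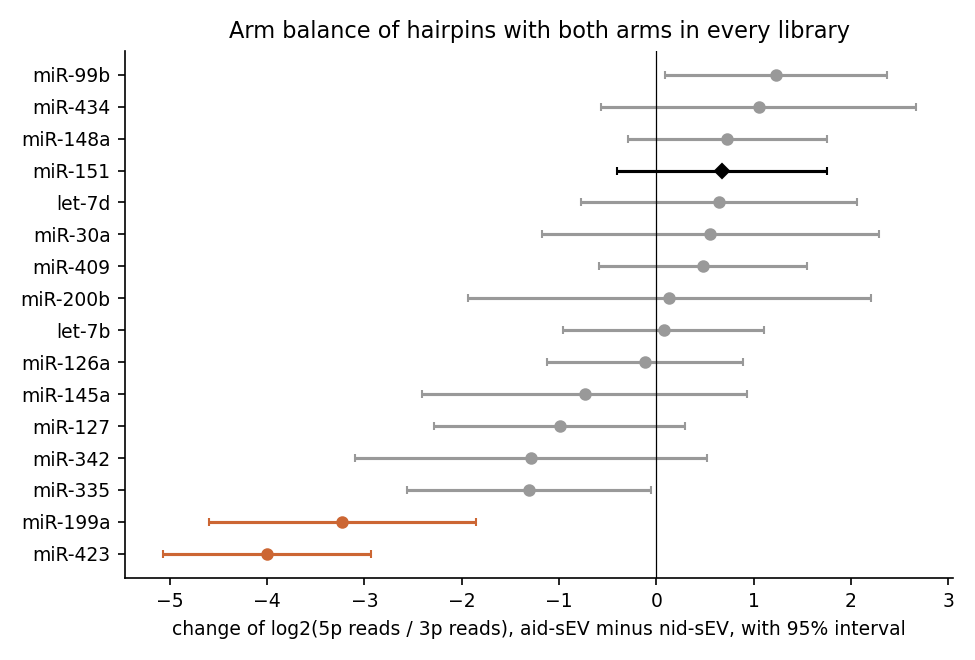
Change of the log2 ratio of 5p to 3p reads from nid-sEVs to aid-sEVs in the 16 hairpins with both arms in every library, with 95% intervals from limma. The interval of miR-151 (black diamond, 0.67) includes 0, and miR-423 and miR-199a (orange) pass the test, miR-199a only with its 3p entry kept apart from miR-199b-3p.

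The miRNAs whose levels followed those of miR-151-5p most closely were found by Pearson's r of log2(RPM + 1) over the 6 libraries, among the 177 other named miRNAs detected in all of them. These values are descriptive, because the points share the library totals and the difference between the groups. The 5 closest were miR-134-5p (r = 0.99), miR-411-5p (0.97), let-7f-5p (0.97), let-7d-5p (0.96) and miR-409-3p (0.96). miR-134, miR-411 and miR-409 come from the imprinted Dlk1-Dio3 region. The share of this region among the 177 was not counted, so no link to it is read. As for miR-151-5p, each aid-sEV library of miR-134-5p, at 229 to 331 RPM, exceeded each nid-sEV library, at 79.2 to 139 RPM, and replicate 3 was the lowest in both groups. let-7f-5p had the same order of groups, with 14485 to 19915 RPM in nid-sEVs and 34490 to 50736 RPM in aid-sEVs.

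The other arm was not among the closest. miR-151-3p was number 18 in likeness to miR-151-5p (r = 0.90), and miR-28a-3p was number 51 (r = 0.70). miR-151-3p was closest to miR-409-5p (r = 0.996), miR-191-5p (0.98) and miR-23b-3p (0.98), and miR-28a-3p to miR-191-5p (0.94), miR-409-5p (0.94) and miR-98-5p (0.94). miR-151-3p was number 4 in likeness to miR-28a-3p (r = 0.93). Among aid-sEVs both 3p arms were lowest in replicate 1, as was miR-191-5p, with 21810, 32841 and 37288 RPM in aid-sEV replicates 1, 2 and 3.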

How the data were processed

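Small RNA libraries of sEVs (3 of nid-sEVs, 3 of aid-sEVs) were processed by the authors' sequencing company and deposited as RPM per entry and library. The authors' deposited table also holds their own comparison (log2 fold change, mean abundance, p-value and false discovery rate), which was not used. The submitters' notes name fastp 0.23.0, HISAT2 2.2.1 and GRCm38. The miRNA quantifier, reference release and filters are not given in the sources used here. Groups and replicate numbers come from the sample titles.

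RPM divided by the smallest value above 0 in each library gave whole reads for 100% of values (tolerance 0.01). Limma 3.58.1 in R 4.3.3 (eBayes, with trend) was run on log2(RPM + 1) over all 718 entries with the group as the only term. Benjamini-Hochberg adjustment covered all entries. Arm ratios used log2 of reads + 0.5 without trend. edgeR 4.0.16 and DESeq2 1.42.0 were run on recovered reads. The scripts were tested on simulated data.

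The members, lists and tests were chosen with earlier results of these data known. Besides the members, the text names the miRNAs closest in likeness (5 for miR-151-5p, 3 for other members detected in all libraries), the neighbours in level of miR-151-5p and the hairpins with the 2 largest and 2 smallest changes of arm ratio. The comparisons with miR-375-3p and with the marker sums were added after the values were seen. miR-708-5p had been planned as a member and miR-708-3p was taken as the listed arm. The planned fit of the miR-28a arm ratio was not run because its 5p arm had 0 reads in 2 libraries.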

Additional observations from a re-analysis of the deposited data

How the results depend on the processing

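In all 16 alternatives the direction of miR-151-5p held, with log2 fold changes of 1.35 to 2.15, but it stayed called in 8. It was not called with a pseudocount of 10 (log2 fold change 1.65, adjusted p = 0.052), with named miRNAs only (1.48, adjusted p = 0.061), with thinned reads (1.69, adjusted p = 0.054) or with the replicate number as a block (1.66, adjusted p = 0.11). By edgeR's quasi-likelihood test it was 1.51 with an adjusted p of 0.040, by DESeq2 1.73 with 0.0034, and by limma on RPM divided by TMM factors 2.15 with 0.018. With single libraries left out it ran from 1.35 to 1.86 and was called only without nid-sEV replicate 1 or aid-sEV replicate 3 (adjusted p = 0.034 and 0.046; the others 0.056 to 0.13). With single libraries left out, miR-151-3p ran from 0.88 to 1.16, miR-28a-5p from 4.30 to 7.58, miR-28a-3p from 0.94 to 1.53, miR-708-3p from 0.95 to 3.94 and the miR-151 arm ratio from 0.46 to 0.94. Thinned reads called miR-151-3p (1.16, adjusted p = 0.030 by limma). The thinning was a random draw that was not repeated, and another draw could change the thinned results. miR-708-3p was negative with thinned reads (-0.65) and by DESeq2 (-0.53), and without nid-sEV replicate 1 it was 3.94 (adjusted p = 0.031 by limma), since all its nid-sEV reads are in that library. The causes of the other changes were not tested. No alternative made the arm ratio of miR-151 pass the test. Scaled to named miRNAs, the members without overlap between groups numbered 2 in place of 4, and with miR-199b-3p summed into miR-199a-3p the arm change of miR-199a was 0.011 in place of -3.23; these 2 alternatives were chosen after seeing the data. The filter of edgeR removed miR-28a-3p and miR-708-3p. Over all entries limma called 112 higher and 13 lower, 125 in all, edgeR 48 and 21, 69 of the 245 that it tested, and DESeq2 65 and 50. The share called higher was 89.6%, 69.6% and 56.5%. With the replicate block limma called 0 entries, and 187 had an unadjusted p under 0.05. Same-numbered libraries of the groups did not deviate together (r = -0.054, 0.13 and -0.11), so the numbers are not read as pairs. TMM factors moved the median change over all entries from 1.11 to 1.43 on the log2 scale, and centring moved it to 1.28. Depth limits miR-28a and miR-708 most, with at most 12 reads of an arm in a nid-sEV library.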
